A study of Homo sapiens with 12 samples.

Results

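The clustered protocadherin genes lie in 3 neighbouring groups, alpha, beta and gamma, on the long arm of chromosome 5. The H3K27ac peaks in a window around them are described here. H3K27ac, acetylation of lysine 27 of histone H3, marks active promoters and enhancers. The members are the peaks inside a 750 kb window that starts at base 140150001 of chromosome 5 in hg19, chosen by position alone in the 9 deposited peak lists. These were 134 of the 659281 peaks on chromosomes 1 to 22 and X. Each list placed 14 to 16 peaks there, with 16, 14 and 16 in Control replicates 1, 2 and 3, 14, 15 and 16 in the CDK19KD libraries, and 14, 15 and 14 in the CDK8KD libraries. The same length of sequence on each side served as the neighbourhood, with 419 peaks before the window and 450 after it.

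The cells were MDA-MB231, an established breast cancer line with mesenchymal features, and all 3 groups received lentivirus and were harvested 96 h later. The Control group carried the vector labelled EV-control, the CDK19KD group an shRNA against CDK19 and the CDK8KD group an shRNA against CDK8. CDK8 and CDK19 are paralogous kinases of the Mediator kinase module, which links transcription factors to RNA polymerase II. Each group had 3 libraries of native (unfixed) chromatin from 250000 to 500000 cells, and the labels do not say whether these were separate cultures, so p-values measure a spread that may be technical. The number of shRNA sequences per kinase and the extent of each knockdown were not analysed here, nor were the 3 Input samples. The lists held 62669 to 87530 peaks and covered 262 to 318 Mb, and read depth is unknown, so no value carries a counting error.

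Clustered protocadherins are cadherin-family surface proteins best known from neurons, where each cell transcribes a few of the many isoforms and so gains a combinatorial surface identity. In the alpha and gamma clusters every variable exon has its own promoter and is spliced to constant exons shared by the cluster, whereas beta genes are single-exon genes without a constant region. Promoter choice involves the insulator protein CTCF, cohesin and distant enhancers, and most variable promoters share a conserved sequence element whose core reads CGCT. RefSeq lists 53 protein-coding genes in the clusters, 15 alpha (PCDHA1 to PCDHAC2), 16 beta (PCDHB1 to PCDHB15) and 22 gamma (PCDHGA1 to PCDHGC5), in that order along the chromosome. The alpha and beta clusters adjoin with no other protein-coding gene between them, and SLC25A2 and TAF7 lie between the beta and gamma clusters. ZMAT2 is the nearest protein-coding gene before the clusters, and DIAPH1 follows them. These names and their order come from the GRCh38.p14 assembly, whereas the peaks are in hg19, so no peak is assigned to a gene below. Peaks of the window, the strongest included, may therefore lie at genes other than protocadherins, such as SLC25A2 and TAF7.

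The promoters of the first gene of each cluster are shown as examples, with matches to the letters CGCT marked. Whether a marked match is part of the conserved element was not tested, nor whether these promoters are typical of their clusters. Each line gives the 250 bases before the gene's start on the plus strand in GRCh38.p14, from RefSeq, with CGCT and its reverse complement AGCG in capitals.
PCDHA1, chr5:140785890-140786139: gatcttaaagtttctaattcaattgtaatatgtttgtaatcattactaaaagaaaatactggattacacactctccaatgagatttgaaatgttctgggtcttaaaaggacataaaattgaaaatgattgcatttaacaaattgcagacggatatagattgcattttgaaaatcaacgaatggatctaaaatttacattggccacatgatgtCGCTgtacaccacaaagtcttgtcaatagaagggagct
PCDHB1, chr5:141051124-141051373: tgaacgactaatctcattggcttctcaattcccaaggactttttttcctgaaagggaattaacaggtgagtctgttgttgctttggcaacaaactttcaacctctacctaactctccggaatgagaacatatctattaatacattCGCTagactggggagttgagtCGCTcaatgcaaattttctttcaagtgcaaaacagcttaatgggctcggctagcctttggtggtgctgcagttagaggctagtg
PCDHGA1, chr5:141330264-141330513: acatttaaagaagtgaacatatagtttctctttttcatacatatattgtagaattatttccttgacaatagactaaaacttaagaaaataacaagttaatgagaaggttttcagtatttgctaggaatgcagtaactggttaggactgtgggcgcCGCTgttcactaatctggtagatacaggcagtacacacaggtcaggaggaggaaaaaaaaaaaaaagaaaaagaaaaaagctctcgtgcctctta

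PCDHA1 and PCDHGA1 each held 1 such match in the printed bases and PCDHB1 held 2. Over the full 300 bases of each entry, from 250 before to 50 after the start, CGCT or AGCG occurred in 51 of the 52 cluster promoters (98.1%), which belong to 47 of the cluster genes. The promoter without a match was that of PCDHA9. Among all 35116 RefSeq promoters of this length the share was 70.0%, and the median promoter held 2 matches in both sets, so a match of 4 letters is common and is not by itself a site. Cluster promoters held fewer CpG dinucleotides than promoters at large, with a median of 7.5 against 14. The median was 7 in the alpha cluster, 7.5 in the beta cluster and 10 in the gamma cluster.

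H3K27ac peaks covered little of the protocadherin window in every library. The covered length was 39.4, 43.9 and 44.7 kb in Control replicates 1 to 3, 35.2, 34.1 and 34.6 kb in CDK19KD, and 42.0, 41.1 and 49.6 kb in CDK8KD. As a share of the window, Control had 5.69% ± 0.379, CDK19KD 4.62% ± 0.0716 and CDK8KD 5.90% ± 0.618 (SD, n = 3 each). The sequence on either side was covered far more, at 25.7 to 35.2% before the window and 23.6 to 33.1% after it. No library's window came near either of its neighbours, and the mean flank held 5.31 ± 0.490 times (SD, n = 9) the covered length of the window, with a range of 4.61 to 6.10. On the log2 scale the window-to-flank ratio was −2.40 (range −2.61 to −2.21) and lay below 0 in 9 of 9 libraries (exact two-sided sign-flip permutation p = 0.00391, the smallest that 9 libraries allow). The test took libraries of the same cell line as independent. Its p therefore measures how well the ratio repeated across libraries, not how unusual the window is in the genome.

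**Figure D1:**
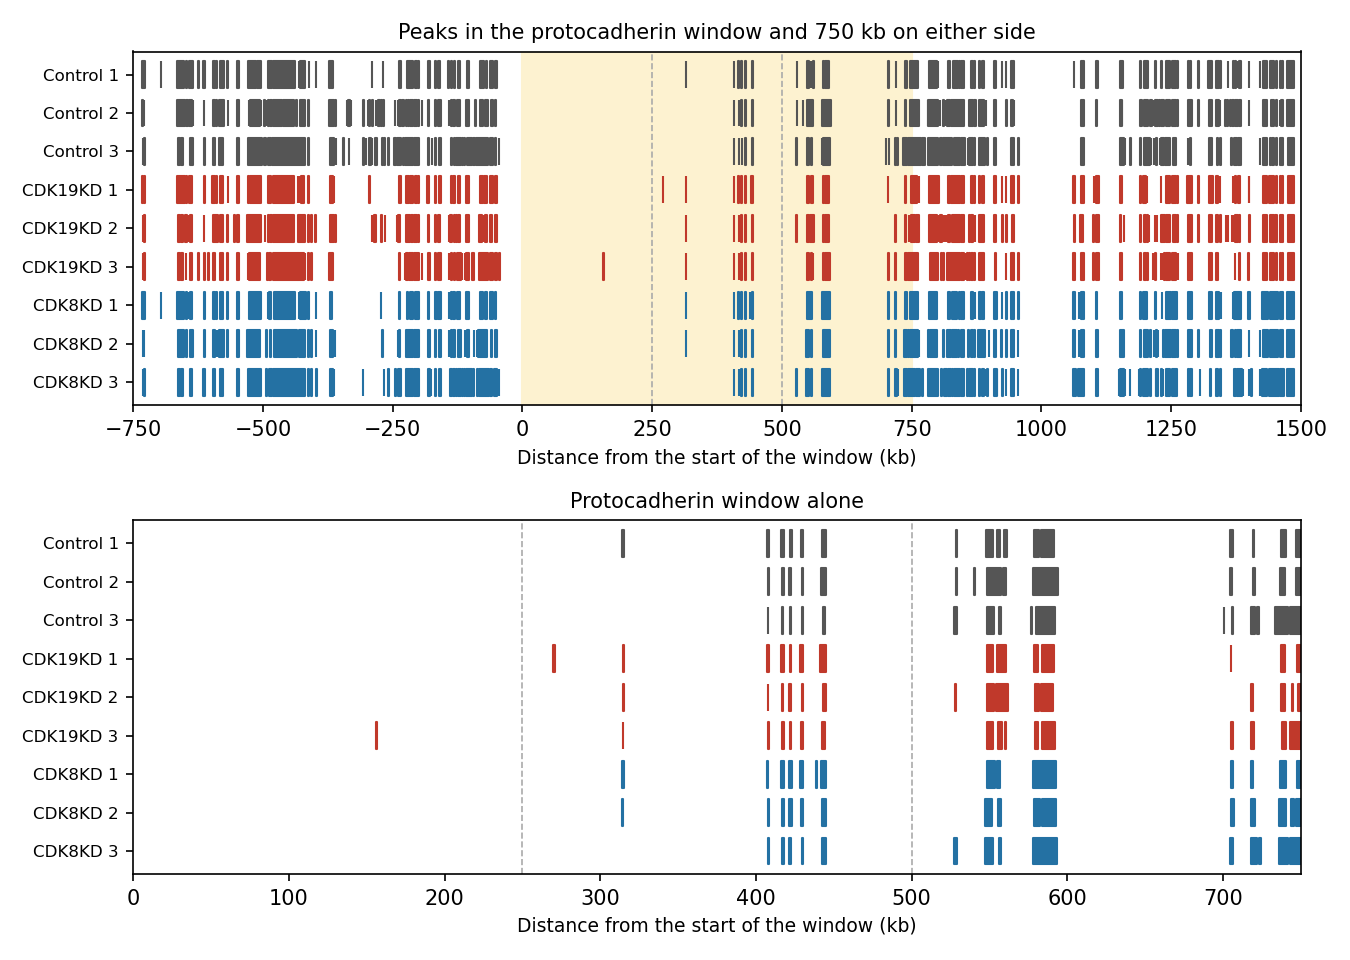
Peaks of the 9 libraries by distance from the start of the protocadherin window in kb. The upper panel adds 750 kb on each side of the shaded window, and dashed lines divide the window into sections of 250 kb. Each bar is a peak, and the thinnest bars are drawn at the width of the line. The first 250 kb of the window hold 1 peak in 1 library, while the flanks hold 79 to 117 peaks per library.

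Against the genome, the low share of the window was less unusual than its contrast with the neighbourhood. Of 3554 tiles of 750 kb that carried a peak, the median tile was covered to 8.62% (quartiles 2.61 and 16.8%) averaged over the 9 libraries, and 37.3% of tiles had a lower share than the window's 5.40%. The tiles beside the window were dense, since 2.37% of tiles had more densely covered neighbours. A log2 ratio of tile to neighbours at or below that of the window occurred in 350 of the 3162 tiles with both neighbours measured (11.1%). Among the 76 tiles whose neighbours were covered at least as much, 3 (3.95%), the protocadherin window among them, had a share as low. The window was also steady across libraries, with a coefficient of variation of 12.9% against a median of 22.7% among tiles whose mean share lay within 1.5 times of its own.

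**Figure D2:**
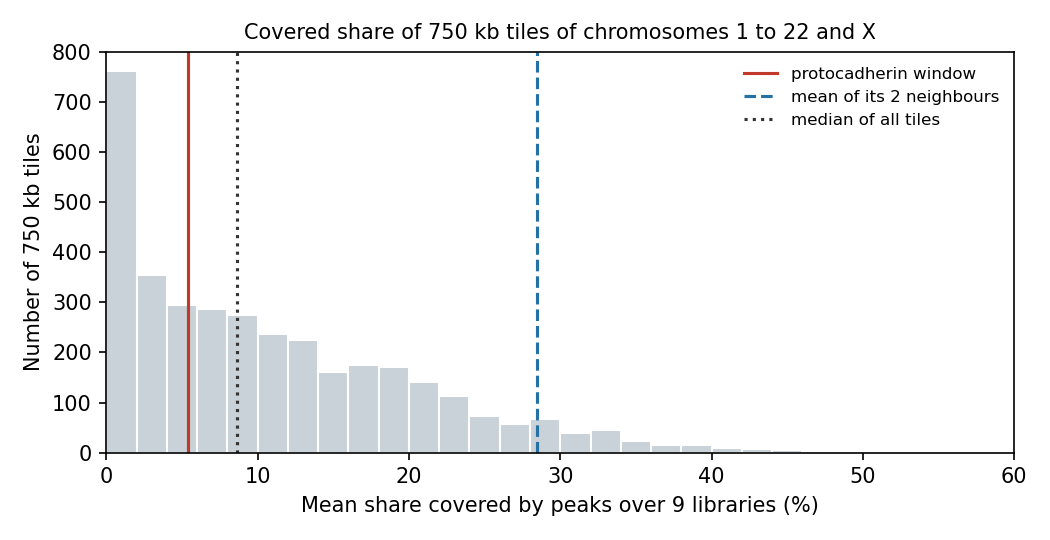
Histogram of the share of each 750 kb tile covered by peaks, averaged over 9 libraries (x axis, percent), against the number of tiles (y axis). The solid line marks the protocadherin window at 5.40%, the dotted line the median of all tiles at 8.62%, and the dashed line the mean of the 2 tiles beside the window.

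The covered length was spread unevenly along the window. In the first 250 kb (chr5:140150001-140400000) 8 libraries had no peak. The exception was CDK19KD replicate 3, with 387 bp at chr5:140306063-140306449, a weak peak with a deposited fold enrichment of 1.95 that ranked at percentile 2.20 of its own list by −log10 p (100 is the strongest). The second 250 kb (chr5:140400001-140650000) were covered to 9.44, 7.28 and 3.48 kb in Control, 10.7, 5.10 and 5.25 kb in CDK19KD, and 11.0, 7.19 and 6.47 kb in CDK8KD. The last 250 kb (from base 140650001) held most of the covered length, at 29.9, 36.6 and 41.2 kb in Control, 24.4, 29.0 and 29.0 kb in CDK19KD, and 31.0, 33.9 and 43.1 kb in CDK8KD. Mean shares over the 9 libraries were 0.0172%, 2.93% and 13.3% for the 3 sections in order. In each group replicate 1 covered the most in the second section and the least in the last, and the part of the replicate number in these values was not tested.

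Most of the window was free of peaks in all libraries. The 9 lists together touched 9.59% of it, against 48.1% of the flank before and 47.1% of the flank after, and 678052 bp (90.4%) were touched by none. All 9 libraries covered the same 2.54% of the window (19013 bp), against 17.5% and 14.8% of the flanks. The longest untouched stretch was chr5:140106165-140306062 (199.9 kb), of which 156.1 kb lay inside the window and the rest before it. The nearest region before the window was chr5:140104872-140106164. Next in length were chr5:140306450-140419907 (113.5 kb) and chr5:140743688-140850442 (106.8 kb). The longest inside the flank after the window was 104.3 kb. Over the genome 1691 of 120340 stretches between regions (1.41%) were at least as long as the 199.9 kb of that stretch.

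Overlapping peaks of the 9 lists merged into 21 regions in the window. Of these, 9 (42.9%) were held by all 9 libraries, 8 (38.1%) by 1 library and 4 by some. Over the genome 28.3% of 120363 regions were held by all and 38.5% by 1 library, and in the flanks 36.2% (before) and 37.7% (after) were held by all. The 9 shared regions made up 83.5 to 93.7% of the covered length of the window, a share like that in the flanks (85.4 to 97.7% before, 87.6 to 93.0% after) and over the genome (83.3 to 90.5%). A library held a region with 1 bp of overlap, and when 50% of the region had to be covered, 2 regions were held by all.

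Of these 9 regions, 5 lay close together in the second section. They were chr5:140556999-140558234, chr5:140565859-140568143, chr5:140570979-140573094, chr5:140578452-140580387 and chr5:140591137-140594986, and they were 1236 to 3850 bp wide. Their peaks were of middling strength, with mean percentiles of 49.9 to 59.7 in their own lists. The narrowest, chr5:140556999-140558234, was covered to 1.18, 0.388 and 0.315 kb in Control, 1.23, 0.250 and 0.787 kb in CDK19KD, and 0.975, 0.529 and 0.388 kb in CDK8KD. The widest, chr5:140591137-140594986, was covered to 2.47, 2.98 and 1.10 kb in Control, 3.55, 1.87 and 1.66 kb in CDK19KD, and 3.13, 2.38 and 2.35 kb in CDK8KD. The groups overlapped at both. At chr5:140570979-140573094 the CDK19KD libraries (0.631, 1.138 and 0.388 kb) lay below the CDK8KD libraries (1.775, 1.478 and 1.491 kb). Control (1.388, 1.671 and 0.372 kb) overlapped with both there. How often these groups separate in this way over the genome was not counted.

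The other 4 shared regions lay in the last section and were wider and stronger. Whether they lie at protocadherin genes or at other genes was not determined. The strongest was chr5:140697121-140711591 (14471 bp, mean percentile 92.4), whose best peak had a fold enrichment of 4.16 to 6.51 and a −log10 p of 7.94 to 23.6 across libraries. It was covered to 8.41, 10.6 and 6.28 kb in Control, 9.38, 11.97 and 6.14 kb in CDK19KD, and 7.23, 6.71 and 6.53 kb in CDK8KD. Control and CDK19KD libraries spanned a wide range here and the CDK8KD libraries fell within it. The second in strength, chr5:140892998-140915896 (22899 bp, mean percentile 90.5, fold enrichment 3.87 to 6.39), crosses the end of the window, and 2239 to 7003 bp of its peaks lay inside. It is therefore partly a feature of the flank, where the next region outside is chr5:140916614-140918444. Next came chr5:140727707-140743687 (15981 bp, mean percentile 73.5, fold enrichment 3.28 to 4.71) and chr5:140883481-140891837 (8357 bp, mean percentile 66.3, fold enrichment 3.08 to 4.14). For comparison, the strongest flank regions were chr5:139668089-139732004 (mean percentile 95.3) and chr5:140016608-140020925 (94.6) before the window, and chr5:141486088-141491947 (98.8) and chr5:140930571-140952774 (98.2) after it.

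The remaining regions were weaker or rarer. Those held by some libraries were chr5:140464198-140465280 (6 libraries, among them all 3 of CDK19KD), chr5:140677345-140679425 (5 libraries, among them all 3 of Control), chr5:140854472-140856745 (8 libraries) and chr5:140867734-140871536 (8 libraries). Their mean percentiles were 50.7, 37.9, 26.6 and 39.3 in that order. No region was held by all 3 libraries of a group and by none of another group. Over the genome such group-exclusive regions were 1.02% of all for CDK19KD and Control, 0.994% for CDK8KD and Control, and 1.59% for CDK19KD and CDK8KD, so a count of 0 among 21 is near the background. The count rose to 1 without Control replicate 1 (CDK19KD against Control), without CDK19KD replicate 2 (Control against CDK19KD) and without CDK8KD replicate 3 (Control against CDK8KD).

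Peaks in the window were narrower than those beside it, while their ranks within their lists covered a similar range. Their median width was 1058 to 2071 bp per library, against 2345 to 3635 bp in the flanks. Their median percentile by −log10 p was 45.8 to 62.2, against 46.1 to 60.1 in the flanks, and the difference between window and flanks was 1.54 ± 4.68 points (SD, n = 9; range −8.04 to 6.86), below 0 in 3 libraries. The sign turned among stronger peaks, to −12.1 points with a −log10 q of at least 5 and to −2.03 points in the 20000 strongest peaks of each list. In these lists the medians of the window rested on few peaks, 2 to 7 and 2 to 5 per library in that order. A −log10 q of at least 5 was reached by 46 of the 134 peaks in the window (34.3%), by 332 of 869 in the flanks (38.2%) and by 31.3% of all 659281 peaks. At that threshold chr5:140697121-140711591 and chr5:140892998-140915896 were still held by all 9 libraries, chr5:140727707-140743687 by 8 and chr5:140883481-140891837 by 5, while each of the 5 regions of the second section was held by at most 4.

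The comparison of groups asks how H3K27ac at the clusters differed after knockdown of each kinase. CDK19KD libraries covered less of the window than any other library, at 34.1 to 35.2 kb against 39.4 to 49.6 kb in the other groups. The same separation held for 144 of the 3554 tiles of the genome (4.05%). Groups accounted for 72.7% of the variance of the window's share (exact permutation over 280 splits, p = 0.0286, or 0.0857 after Benjamini-Hochberg adjustment over the 6 measures compared among the 3 groups). With labels permuted only within replicate numbers the exact p was 0.0833, and without CDK19KD replicate 1, 2 or 3 the groups held 68.2, 65.6 and 66.8% of the variance (exact permutation p = 0.0679, 0.0857 and 0.0821). In stricter lists the libraries of a group lay further apart and the groups held less of the variance, while the ratios between them did not shrink. At a −log10 q of 5 or more, groups held 22.5% (exact permutation p = 0.446), and 26.4% in the 20000 strongest peaks (exact permutation p = 0.421). The log2 ratio of CDK19KD to Control was −0.32 and −0.60 in these lists in that order, and that to CDK8KD −0.65 and −1.04. Within replicate numbers, tests added after seeing the data gave an exact permutation p of 0.0278, the smallest possible, with a −log10 q of at least 5, where CDK19KD was below Control and Control below CDK8KD in 3 of 3 numbers. In the 20000 strongest peaks this p was 0.167, with CDK19KD below Control in 3 of 3 numbers.

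Between pairs of groups the log2 ratio of the mean shares was −0.30 for CDK19KD to Control (exact permutation p = 0.1) and −0.35 for CDK19KD to CDK8KD (exact permutation p = 0.1), in both cases the smallest p that 3 against 3 libraries allow. With signs flipped within replicate numbers the exact permutation p was 0.25 for both, again the smallest possible. CDK8KD and Control overlapped, with a log2 ratio of 0.053 (exact permutation p = 0.8), which became −0.0010 without Control replicate 1, −0.036 without CDK8KD replicate 3, 0.33 with a −log10 q of at least 5 and 0.45 in the 20000 strongest peaks (exact permutation p = 0.5 and 0.7 in these lists). In a limma fit over all 3554 tiles the window differed by −1.07 points of covered share between CDK19KD and Control (SE 0.525, Benjamini-Hochberg adjusted p = 0.610) and by −1.28 points between CDK19KD and CDK8KD (SE 0.525, adjusted p = 0.411). The difference between CDK8KD and Control was 0.213 points (SE 0.525, adjusted p = 0.895). No difference of the window passed adjustment over the tiles. With replicate numbers as a block, the limma adjusted p was 0.306 for CDK19KD against Control and 0.180 for CDK19KD against CDK8KD. It was 0.831 for CDK8KD against Control.

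The CDK19KD lists as a whole had the lowest mean total, but their totals overlapped with that of Control replicate 1. The total of CDK19KD was 267 ± 4.89 Mb, against 297 ± 29.7 Mb for Control and 302 ± 14.2 Mb for CDK8KD (SD, n = 3 each), and a test of the totals over 3 groups missed the threshold (exact permutation p = 0.15). The log2 ratios of the totals were −0.15 to Control (exact permutation p = 0.3) and −0.18 to CDK8KD (exact permutation p = 0.1). Scaled to these totals, the window held 129 to 130 bp per covered Mb in CDK19KD, 140 to 150 in Control and 139 to 156 in CDK8KD. The ratios then shrank to −0.15 and −0.17 on the log2 scale with CDK19KD still below every other library (70.6% of the variance, exact permutation p = 0.025, adjusted 0.0857). The flanks on their own did not separate the groups (26.8% of the variance before, exact permutation p = 0.357, and 22.7% after, exact permutation p = 0.429). The log2 window-to-flank ratio averaged −2.36 ± 0.0893 for Control, −2.54 ± 0.0876 for CDK19KD and −2.31 ± 0.107 for CDK8KD (SD, n = 3 each), and its difference between groups missed the threshold (61.4% of the variance, exact permutation p = 0.0857, adjusted 0.171). Without CDK8KD replicate 2 it was 74.7% (exact permutation p = 0.0429), and it fell to 24.7% with a −log10 q of at least 5, 26.9% in the 20000 strongest peaks and 33.6% with shorter flanks (exact permutation p = 0.436, 0.393 and 0.264). With labels permuted only within replicate numbers the exact permutation p of this ratio was 0.0556.

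**Figure D3:**
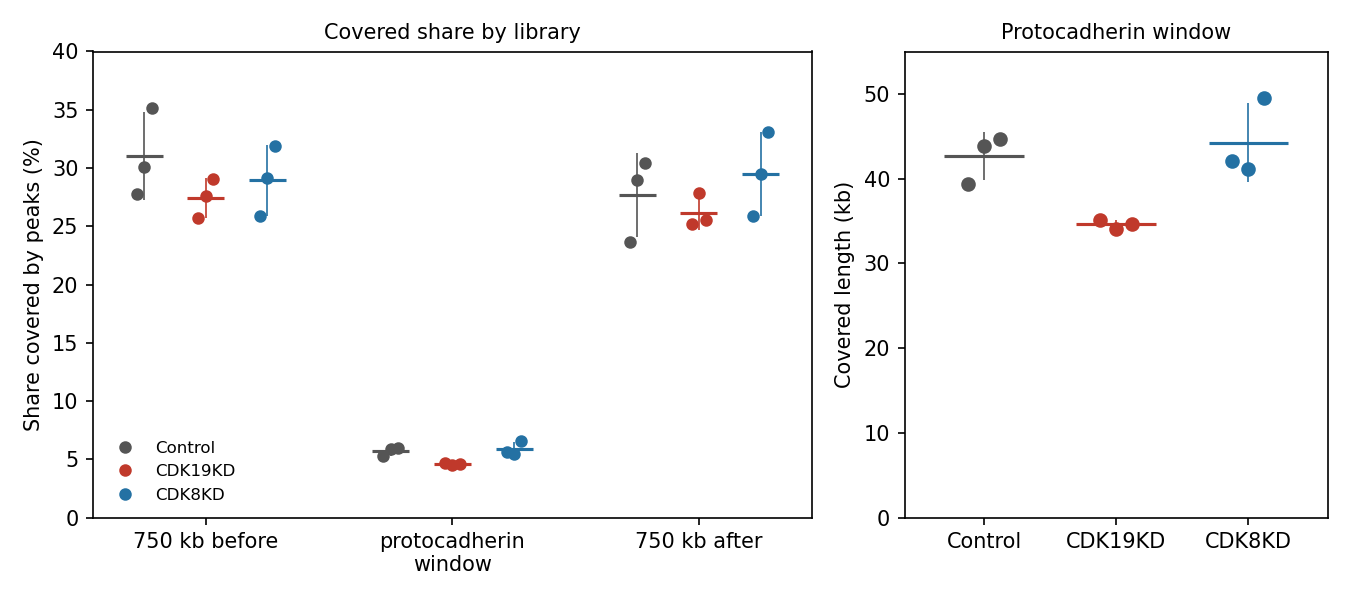
Left, percent of each 750 kb stretch covered by peaks in each library (points), with group means (horizontal lines) and SD (vertical lines). Right, covered length of the protocadherin window in kb. The 3 CDK19KD libraries lie at 34.1 to 35.2 kb, below the other 6, while groups overlap in both flanks.

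In a pair of regions of the last section every CDK19KD library lay below both other groups. Region chr5:140727707-140743687 was covered to 11.99, 15.7 and 12.2 kb in Control, 10.1, 9.90 and 9.95 kb in CDK19KD, and 14.6, 13.4 and 15.7 kb in CDK8KD. The CDK19KD libraries were the lowest 3 and did not overlap with either other group, with means of 13.3 ± 2.07, 10.0 ± 0.129 and 14.6 ± 1.16 kb (SD, n = 3 each) in Control, CDK19KD and CDK8KD. Each CDK19KD library listed 2 peaks there, as did Control replicate 1 and CDK8KD replicate 2, while the other 4 libraries listed 1 continuous peak. Region chr5:140883481-140891837 was covered to 3.03, 2.68 and 8.36 kb in Control, 2.37, 2.44 and 2.62 kb in CDK19KD, and 3.68, 4.41 and 5.74 kb in CDK8KD. CDK19KD was again the lowest, by a narrow margin against Control replicate 2, and Control replicate 3 stood far above the rest.

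These were 2 of the 9 shared regions, and over the genome every CDK19KD library lay below both other groups in 4.35% of 34047 shared regions. The other 5 directions occurred in 0 of the 9. Their genome shares were 3.34% for Control below both other groups, 1.6% for Control above, 1.37% for CDK19KD above, 1.16% for CDK8KD below and 8.93% for CDK8KD above. Of the mean difference of −8.00 kb between CDK19KD and Control over the window, −3.31 kb lay in chr5:140727707-140743687 (−2.12 kb without Control replicate 2). A further −2.21 kb lay in chr5:140883481-140891837, which rested on Control replicate 3, since without it this region held −0.377 kb of −7.00 kb. Against CDK8KD these regions held −4.58 and −2.13 kb of −9.60 kb. The strongest region, chr5:140697121-140711591, had the opposite sign, at 0.745 kb against Control and 2.34 kb against CDK8KD, with groups that overlapped. Against Control that sign turned without Control replicate 3 (−0.326 kb) and without CDK19KD replicate 2 (−0.657 kb).

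**Figure D4:**
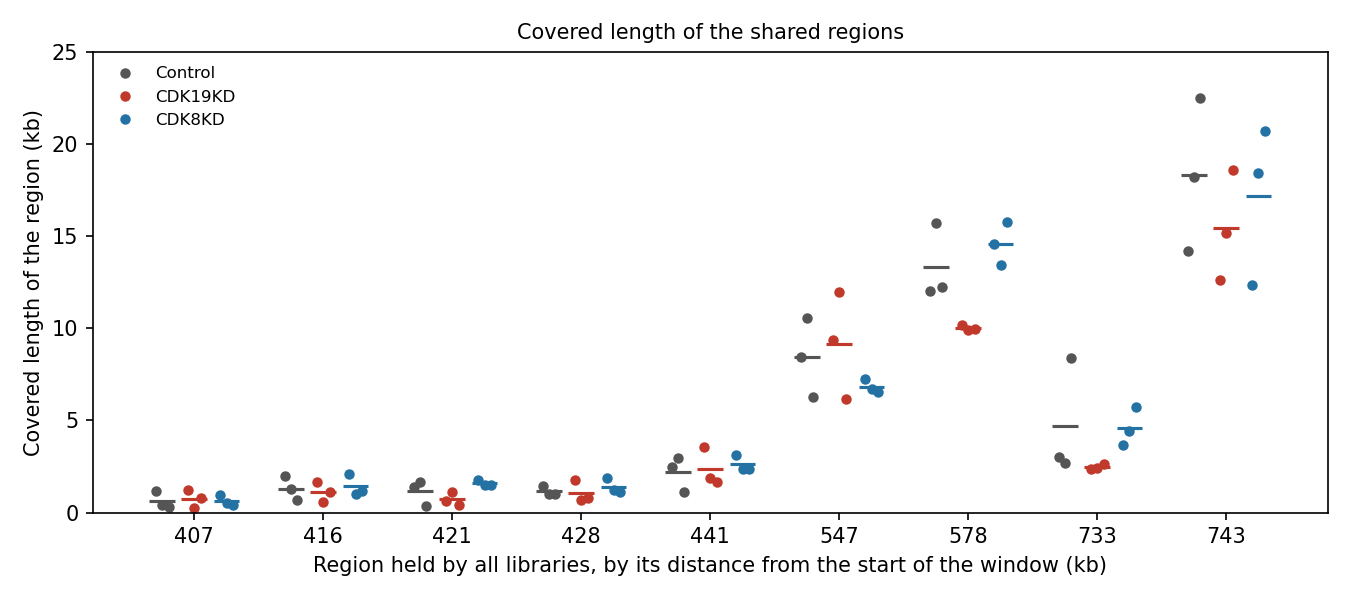
Covered length in kb (y axis) of the 9 regions held by all libraries, placed in order and labelled by the distance of their start from the start of the window (x axis, kb, not to scale). Points are libraries and lines group means, and the last region is shown in full although it crosses the end of the window. At the region starting 578 kb into the window the CDK19KD libraries lie at 9.90 to 10.1 kb, below all others.

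A limma fit of the covered share of 10 kb windows over the genome called none of the windows at the clusters. Of 75 such windows, 15 had a mean share of at least 5% and were among the 78056 windows tested. None of the 15 passed a Benjamini-Hochberg adjusted p of 0.05 for CDK19KD against Control (genome 0.0781%), CDK8KD against Control (genome 0.716%) or CDK19KD against CDK8KD (genome 1.01%), which is near the background for so few windows. These genome counts moved when a library was left out. The 61 windows called for CDK19KD against Control became 1205 without Control replicate 1 and 26 to 34 without a CDK19KD library. They became 7 without CDK8KD replicate 1, 2 or 3, libraries of neither group, and 2 with the replicate block. The 559 for CDK8KD against Control became 2060 without Control replicate 1, 39 without Control replicate 2 and 15 without CDK8KD replicate 3. The 785 for CDK19KD against CDK8KD became 42 without CDK8KD replicate 3 and 64 without CDK19KD replicate 3. An unadjusted p below 0.05 was reached by 1, 0 and 4 of the 15 in that order, against 9.92, 14.7 and 14.6% of all windows tested. The 4 are not separate loci. Those at chr5:140720001-140730000, chr5:140730001-140740000 and chr5:140740001-140750000 all overlap the region chr5:140727707-140743687, and the last is chr5:140850001-140860000. The lowest p was at chr5:140730001-140740000, which lies inside the region chr5:140727707-140743687 already described. Its covered share was 88.0, 100 and 100% in Control, 74.6, 82.6 and 73.0% in CDK19KD, and 100, 89.7 and 100% in CDK8KD. The CDK19KD libraries were the lowest 3, by −19.8 points against CDK8KD (SE 4.48, limma adjusted p = 0.0948) and by −19.3 points against Control (SE 4.48, limma adjusted p = 0.241).

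The 15 estimates were below 0 in 11 windows for CDK19KD against Control, against 59.6% of all windows tested, with a median of −5.33 points beside −2.26 points over all. For CDK19KD against CDK8KD the estimate was below 0 in 12 of 15, against 63.6% of all, with a median of −8.31 points beside −3.22 points. That median was −4.43 points without CDK8KD replicate 3. For CDK8KD against Control 3 of 15 were below 0, against 44.7% of all, with a median of 1.53 points beside 0.88 points, and 7 of 15 without CDK8KD replicate 3. With shares scaled by the total covered length of each list, the medians over all windows changed sign for CDK19KD, to 0.98 points against Control and 0.52 points against CDK8KD. The medians of the 15 were then −3.74 and −6.52 points, with 11 of 15 below 0 in both comparisons. These comparisons share libraries, and neighbouring windows share peaks.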

How the data were processed

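H3K27ac native ChIP-seq peak lists of 9 libraries (3 groups of 3, from the sample titles) were used as deposited. Broad peaks were called per library with MACS2 on hg19, per the submitters' processing notes, which also name deepTools. The aligner, versions, caller settings, control library and treatment of reads that match several gene copies are not given in the sources used here. For each peak the authors deposited a fold enrichment (a linear ratio), a −log10 p-value and a −log10 q-value, and these values were used within a list alone, for description, ranking and filtering. A deposited score was not used.

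Covered base pairs were counted on chromosomes 1 to 22 and X, with coordinates from 1. Peaks that overlapped or touched were merged into regions, held by a library at 1 bp of overlap. The window was compared with its flanks, and groups with each other, by exact two-sided permutation tests over libraries, in which 3 against 3 cannot fall below p = 0.1. Shares of 10 kb windows (mean at least 5%) and, chosen after seeing the data, of 750 kb tiles were fitted with limma 3.58.1 in R 4.3.3 (lmFit, eBayes with trend) and adjusted by Benjamini-Hochberg over all windows. The fit was run on simulated data, with residuals shuffled within each window and a change larger than any reported here at the clusters. That run does not show whether smaller differences would be called. No count model was used, since depth is unknown. Regions were named by strength among those held by all libraries, width, untouched length and lowest p. The window, tests and lists were chosen with earlier results of these data known. RefSeq tables of GRCh38.p14 gave gene order and promoters.

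Replicate numbers in the titles recur in each group. Deviations of same-numbered libraries from group means correlated at 0.138 to 0.611 over 9 pairs, all above 0.1, so numbers were taken to pair the libraries. Over the 18 pairs with different numbers the correlations were −0.612 to 0.203, so the ranges overlapped. Blocked tests permuted labels within numbers (smallest p 0.0278) or flipped signs within pairs (smallest p 0.25). Chosen after seeing the data, the block was also run on both stricter lists. Other alternatives were stricter lists, among them lists cut to the same number of peaks, whose covered length still differed. Peak width, joining distance, flank choice, scaling, window size and overlap were also varied, and each library was left out.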

Additional observations from a re-analysis of the deposited data

How the results depend on the processing

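Of 110 alternative values for the 8 results other than the pairs of groups, 97 kept their direction and their side of the threshold or, for counts, stayed within 1.5 times. Many of these were counts of 0 called 10 kb windows, or tests of the window against its flanks at their smallest p. Such values had little room to change, so the total says little of stability. All 7 values that lost a passing call belonged to the 3-group difference of the window's share. The pairs of 3 against 3 libraries cannot pass 0.05, so their calls say nothing of stability. The window stayed below its flanks under each alternative run, at −3.48 (20000 strongest peaks) to −2.22 (shorter flanks) on the log2 scale, and at −2.43 to −2.38 with a library left out (exact permutation p = 0.00781). The 3-group difference of the window's share missed the threshold in stricter lists (22.5 and 26.4% of the variance), where the log2 ratio of CDK19KD to Control was as large or larger (−0.32 and −0.60), and with the replicate block (72.7%, exact permutation p = 0.0833). With the block it passed at a −log10 q of at least 5 (22.5%, exact permutation p = 0.0278) and missed in the 20000 strongest peaks (26.4%, exact permutation p = 0.167). That pass rested on unscaled lengths of 2 to 7 peaks in the window per library. With a library left out the 3-group share of variance ranged from 65.6 to 86.4%. The block changed no other call, while it moved the genome count of 10 kb windows for CDK19KD against Control from 61 to 2. The 3-group share for the ratio to the flanks ranged from 49.7 to 74.7% with a library left out and from 24.7 to 63.4% in the other settings. CDK8KD against Control ranged from −0.036 to 0.10 with a library left out and from 0.024 to 0.45 in the other settings, and changed sign without Control replicate 1 (−0.0010) and without CDK8KD replicate 3 (−0.036). The difference in peak strength changed sign with a −log10 q of at least 5 (−12.1 points) and in the 20000 strongest peaks (−2.03 points). In those lists the window held 2 to 7 and 2 to 5 peaks per library. Regions held by all libraries fell from 9 to 2 with a −log10 q of at least 5, to 2 in the 20000 strongest peaks and to 2 when 50% of a region had to be covered. Apart from fewer peaks or libraries, the cause of these changes was not tested. The 10 kb windows gave 0 calls at the clusters in each alternative. Unknown read depth limits every value, since a deeper library can list weak peaks that another misses.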
